A study of Mus musculus with 8 samples.

Results

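Desert hedgehog (Dhh) and the genes that receive and transmit its signal were followed across 8 whole-testis arrays. The members were chosen by gene symbol: Dhh, Ptch1, Smo, Gli1, Gli2, Gli3 and Hhip, 7 of the 18193 genes that carry a symbol of their own on the array. They are covered by 18 of its 45101 probe sets. A probe set is a group of short oligonucleotides that together report 1 transcript region.

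The mice were males of postnatal day 28 with a mixed C57BL6/6J and 129 background, and RNA was taken from whole testis. Every mouse was Dmrt1 flox/flox, so the controls carry the floxed alleles too. Dmrt1 encodes a transcription factor of Sertoli cells and germ cells. Control mice had no Cre (n = 2), the Dhh-Cre group had Cre driven by the Dhh promoter (n = 2), and the Sf1-Cre group had Cre driven by the Sf1 promoter, Sf1 being another name of Nr5a1 (n = 4). The series text describes both promoters as Sertoli cell-specific. The first driver is therefore the promoter of a gene studied here. The arrays of a group are labelled as biological replicates. How many animals stand behind each is not stated in the labels, so the p-values measure the spread between these samples only. Precision is limited throughout by the number of arrays, 8 in all.

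In the testis, Sertoli cells secrete Dhh, and the cells around and between the tubules, among them peritubular and Leydig cells, receive it. The ligand binds Ptch1, which otherwise holds the membrane protein Smo inactive. Freed Smo acts through the primary cilium on the Gli transcription factors. Ptch1, Gli1 and Hhip are themselves transcribed in response to the pathway in many tissues, so their transcripts are commonly read as its output.

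The promoters with an entry among the genes that were higher in both Cre lines are shown because Gli factors bind DNA at a known motif. Each sequence is the 250 bases upstream of the start listed for the gene in a RefSeq promoter table (GRCm38.p6), read 5′ to 3′ on the gene's own strand. For Ptch1 and Gli2 that listed start, and the whole window, lie inside the outer bounds of the gene given below, and the Dhh window overlaps the gene's outer end. Capitals mark the 6-base core of the Gli motif, CCACCC, or its reverse complement GGGTGG. The Dhh promoter lies at chr15:98898541-98898790 (minus strand), that of Ptch1 at chr13:63565736-63565985 (minus), that of Smo at chr6:29735247-29735496 (plus) and that of Gli2 at chr1:119053620-119053869 (minus).
Dhh: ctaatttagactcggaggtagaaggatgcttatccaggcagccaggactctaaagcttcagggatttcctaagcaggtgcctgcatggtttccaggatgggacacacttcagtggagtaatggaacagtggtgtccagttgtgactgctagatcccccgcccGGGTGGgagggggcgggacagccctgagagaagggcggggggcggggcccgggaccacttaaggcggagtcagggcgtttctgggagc
Ptch1: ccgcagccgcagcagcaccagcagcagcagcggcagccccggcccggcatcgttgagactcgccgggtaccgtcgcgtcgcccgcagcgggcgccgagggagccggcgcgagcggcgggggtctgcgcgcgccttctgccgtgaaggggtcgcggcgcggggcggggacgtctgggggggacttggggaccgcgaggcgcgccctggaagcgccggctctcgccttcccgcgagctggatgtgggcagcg
Smo: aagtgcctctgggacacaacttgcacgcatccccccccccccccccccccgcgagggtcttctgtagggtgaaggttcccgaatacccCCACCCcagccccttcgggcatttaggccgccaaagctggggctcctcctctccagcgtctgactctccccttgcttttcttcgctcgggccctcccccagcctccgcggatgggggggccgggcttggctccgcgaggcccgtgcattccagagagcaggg
Gli2: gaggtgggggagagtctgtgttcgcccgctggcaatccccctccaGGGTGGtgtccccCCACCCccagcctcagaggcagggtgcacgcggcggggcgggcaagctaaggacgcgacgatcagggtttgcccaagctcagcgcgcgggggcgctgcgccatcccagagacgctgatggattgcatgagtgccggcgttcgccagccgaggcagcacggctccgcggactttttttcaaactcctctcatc
The Dhh and Smo promoters hold the core once each, the Gli2 promoter holds it on both strands, and the Ptch1 window does not hold these letters. Of 6 members with an entry, 5 matched the core (Dhh, Smo, Gli2, Gli3 and Hhip), as did 28.1% of all 32851 promoters of the same length. The 9-base motif GACCACCCA, searched on both strands and containing the core, matched 0 of the 6 and 0.225% of all promoters. The windows are rich in G and C, from 59.6% in Dhh to 78.4% in Ptch1, against a median of 52.4% over all promoters. These matches describe the letters and are not binding sites.

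Facts of the whole series bear on all values that follow. The deposited values are GCRMA intensities, taken here to log2. Signals under log2 4, or 16 intensity units, were treated as under the floor. A probe set was tested where at least 2 arrays reached the floor, and limma's adjusted p under 0.05 counted as passing. Dmrt1 itself was at log2 8.50 and 8.76 in the controls and between 7.10 and 7.89 in the Sf1-Cre arrays, but at 10.43 and 9.94 in the arrays labelled Dhh-Cre. The whole-testis signal of the target gene thus went against that label, and each direction drawn from the Dhh-Cre group refers to the arrays so labelled. Spermatogonia markers summed to 1221 to 1477 in the controls, 3965 to 4736 in Dhh-Cre and 1741 to 2054 in Sf1-Cre. Of 6 tested, 3 rose and 1 fell in Dhh-Cre, and 3 rose and 3 fell in Sf1-Cre. The part of germ cells in the Dmrt1 signal was not tested. Dhh-Cre replicate 1 and Sf1-Cre replicates 1 and 3 carried high signal of the epididymal gene Spink8 (log2 10.49 to 12.05, against 3.11 to 6.87 in the other arrays). The ratio of 3′ to 5′ signal of Actb, a sign of RNA quality, ranged from 9.45 to 13.6 in the mutant arrays, against 4.44 and 4.89 in the control pair. Spermatid markers summed to intensities of 55603 to 60350 in the controls, 1236 to 12075 in Dhh-Cre and 780 to 4010 in Sf1-Cre, with 8 of 9 lower in Dhh-Cre and 9 of 9 in Sf1-Cre. The part of these differences in the results below was not tested.

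Of 13801 tested genes, 48.9% were higher and 30.4% lower in Dhh-Cre than in control, 46.3% and 33.1% in Sf1-Cre than in control, and 12.4% and 11.1% in Sf1-Cre than in Dhh-Cre. Against that background, 6 of the 6 tested members were higher in Dhh-Cre and 5 of 6 in Sf1-Cre, and 2 of 6 were lower in Sf1-Cre than in Dhh-Cre, with 0 higher. Without the 3 arrays with high Spink8, the members called against control were the same, and neither of the 2 differences between the lines passed. The members had median log2 differences of 2.08, 1.51 and −0.49 in these comparisons, where all tested probe sets had 0.57, 0.36 and −0.01. With Gli1 and Gli2, whose controls lie under the floor, at their lower bounds, the medians against control were 1.57 and 0.97. Only 7 of the 18 probe sets and 6 of the 7 genes passed the filter, which favours members that are high in some group. Gli1 and Gli2 were under the floor in both controls and entered the test only through mutant arrays. The filter thus set their direction, and the counts of 6 and 5 include them. Both comparisons with control share the same 2 control arrays.

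Because so many probe sets moved, the direction of the members depends on what the arrays are scaled to. Centring each array on the median of its housekeeping genes moved the median of all probe sets from 0.57 to −1.12 in Dhh-Cre and from 0.36 to −1.34 in Sf1-Cre, and the share of passing probe sets that were higher from 63.0% to 17.2% and from 59.2% to 16.0%. On that scale Smo alone among the members still passed as higher in both lines, and Dhh stood at 0.48 (adjusted p = 0.103) and −0.17 (adjusted p = 0.484). The 13 tested housekeeping genes themselves had median log2 changes of 0.70 and 0.53 against control. Centring on their mean, chosen after seeing the data, moved the median of all probe sets less, to −0.23 and −0.61. Under that mean centring Dhh, Ptch1 and Smo still passed as higher in both lines. The words "higher" and "rose" below refer to the deposited scale. The rank of a member's signed difference among all probe sets does not change with such centring. It is given beside the changes, except for Gli1 and Gli2, whose controls lie under the floor.

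The ligand gene Dhh (chromosome 15, 98881615 to 98898562, GRCm38.p6) was read by probe set 1434959_at. Its log2 levels were 8.33 and 8.07 in the controls, 10.37 and 10.39 in Dhh-Cre, and 9.86, 9.70, 9.82 and 9.53 in Sf1-Cre, corresponding to intensities of 269 to 322, 1320 to 1340 and 741 to 932. The 3 groups did not overlap: both controls were lowest, the 4 Sf1-Cre arrays lay between, and both Dhh-Cre arrays were highest. The control mean was 8.20 ± 0.19 (SD, n = 2), the Dhh-Cre mean 10.38 ± 0.02 (SD, n = 2) and the Sf1-Cre mean 9.73 ± 0.15 (SD, n = 4). Dhh rose 4.52-fold in Dhh-Cre (log2 2.18 ± 0.18 SE, limma's adjusted p = 1.79e-05) and 2.89-fold in Sf1-Cre (1.53 ± 0.16 SE, adjusted p = 4.51e-05) on the deposited scale. Of all tested probe sets, 15.5% in Dhh-Cre and 23.7% in Sf1-Cre had a higher signed log2 difference from control, a share that leaves out those that fell. In bulk testis RNA, more or fewer cells of a type and more or less RNA per cell cannot be told apart.

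Between the lines, Dhh was 1.57-fold lower in Sf1-Cre than in Dhh-Cre (log2 −0.65 ± 0.16 SE, adjusted p = 0.0244, 95% interval −1.01 to −0.28), in all 4 arrays. This call was lost without Dhh-Cre replicate 1 (adjusted p = 0.127), Dhh-Cre replicate 2 (0.105) or Sf1-Cre replicate 2 (0.0569), and without the 3 arrays with high Spink8 (0.178), while the log2 difference stayed between −0.77 and −0.64. The second Dhh probe set, 1422127_at, stayed under the floor on every array (log2 2.67 to 3.25) and was not tested.

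Sertoli cell markers are the natural comparison for a transcript made by those cells. Their summed intensity was 17775 to 18501 in the controls, 30443 to 32269 in Dhh-Cre and 15709 to 18739 in Sf1-Cre. Of 10 tested markers, 8 rose and 0 fell in Dhh-Cre, and 6 rose and 3 fell in Sf1-Cre, with median log2 changes of 1.08 and 0.60. The transcription factor genes Wt1 and Sox9 were higher by log2 1.25 and 2.78 in Dhh-Cre and by 0.82 each in Sf1-Cre. The androgen-binding protein gene Shbg was higher by 3.55 and 2.45. The 3 markers that fell in Sf1-Cre were Tsx (−6.22), Cst9 (−1.16) and Rhox5 (at least 16.3-fold). In Dhh-Cre, Tsx rose by 0.88, and Cst9 and Rhox5 did not pass. The changes of Dhh lay within the range of the list, which in Sf1-Cre is too wide to place them closely. Between the lines 7 of the 10 markers were lower in Sf1-Cre, as Dhh was. Schwann cells of nerves also make Dhh. Of 4 tested Schwann markers, 2 rose (S100b and Pmp22) and 1 fell (Mbp) in each line. For 3 of the 4, at least 1 of the 2 group means compared was under the floor, which limits these calls. The Schwann transcription factor gene Sox10 had means of log2 3.93, 4.98 and 3.22, Gfap stayed under the floor, and the summed intensity of the list was 355 to 415, 2279 to 2786 and 2550 to 3032. The part of these cells in the Dhh signal was not tested.

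**Figure D1:**
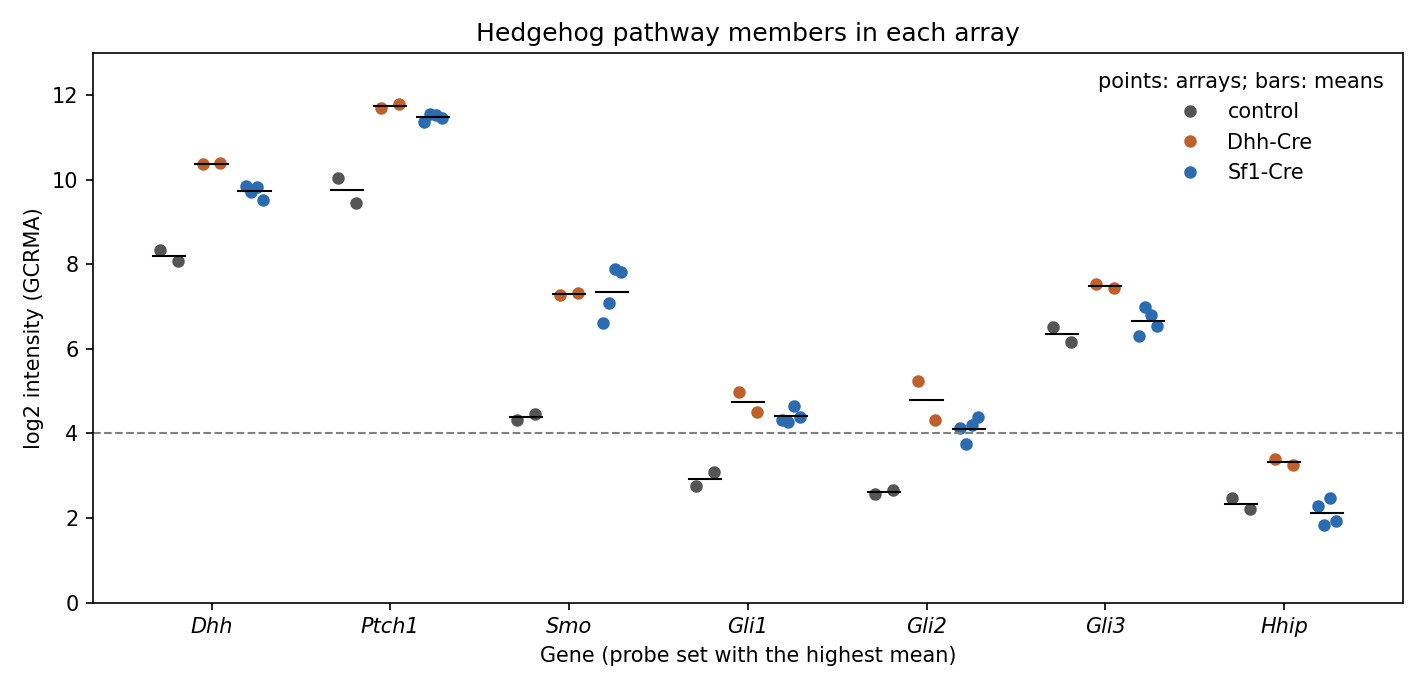
Log2 intensity of each hedgehog pathway gene in each of the 8 arrays, for the probe set with the highest mean; points are arrays, black bars are group means, and the dashed line is the floor at log2 4. Dhh and Ptch1 lie far above the floor in all arrays, the controls of Gli1 and Gli2 lie under it, and Hhip lies under it in every group. Levels of different genes are not comparable, since each is read by its own probes.

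Ptch1 (chromosome 13, 63508328 to 63573460), the receptor of Dhh and a common target of the pathway, was measured well above the floor by 1428853_at. The controls were at log2 10.05 and 9.46, the Dhh-Cre arrays at 11.71 and 11.80, and the Sf1-Cre arrays at 11.37, 11.56, 11.54 and 11.47. Every mutant array was above both controls, by at least the spread between the controls, and both Dhh-Cre arrays were above the 4 Sf1-Cre arrays. The means of 9.76 ± 0.41 (SD, n = 2), 11.75 ± 0.07 (SD, n = 2) and 11.48 ± 0.09 (SD, n = 4) gave a rise of 3.99-fold in Dhh-Cre (log2 1.99 ± 0.21 SE, limma's adjusted p = 6.07e-05) and 3.31-fold in Sf1-Cre (1.73 ± 0.19 SE, adjusted p = 5.52e-05). Signed differences above that of Ptch1 were seen in 18.5% and 20.2% of probe sets. The difference between the lines did not pass (−0.27 ± 0.19 SE, adjusted p = 0.342, 95% interval −0.69 to 0.16). The other 2 Ptch1 probe sets stayed under the floor on all arrays (log2 1.95 to 2.54).

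Smo (chromosome 6, 29735497 to 29761366) is the membrane protein that carries the signal on from Ptch1. Among the tested members with controls above the floor, it had the largest change in both lines. Probe set 1427049_s_at gave log2 4.33 and 4.46 in the controls, 7.28 and 7.31 in Dhh-Cre, and 6.61, 7.09, 7.90 and 7.81 in Sf1-Cre. The Sf1-Cre arrays thus spread on both sides of the Dhh-Cre pair, and all 6 mutant arrays were above the controls. Smo rose 7.47-fold in Dhh-Cre (log2 2.90 ± 0.40 SE, limma's adjusted p = 0.000255) and 7.75-fold in Sf1-Cre (2.96 ± 0.35 SE, adjusted p = 9.97e-05). Both folds rest on control values just above the floor, which limits their size as estimates. Between the lines the difference was 0.05 ± 0.35 SE (adjusted p = 0.933), and its 95% interval of −0.75 to 0.86 leaves room for changes of either sign.

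A second Smo probe set, 1427048_at, was designed from the same sequence record as the first, so the pair is not independent. It read 2.05 and 1.36 in the controls, 4.27 and 4.25 in Dhh-Cre and 3.98 to 4.61 in Sf1-Cre, a rise of at least 1.20-fold (adjusted p = 8.06e-05) and at least 1.30-fold (adjusted p = 2.59e-05) against the floor. The controls of this second probe set lie under the floor, so its direction was set by the filter. The third, 1442215_at, stayed under the floor. Of all probe sets, 6.94% in Dhh-Cre and 7.12% in Sf1-Cre had a higher signed log2 difference than the first Smo probe set. That probe set still passed in both lines under housekeeping centring, but in neither under peritubular and endothelial centring (0.49, adjusted p = 0.178, and 0.42, adjusted p = 0.174).

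The Gli genes encode the zinc-finger factors that bind the motif described above. Gli1 (chromosome 10, 127329882 to 127341579), an activator and a widely used readout of the pathway, has 1 probe set, 1449058_at. It read log2 2.75 and 3.10 in the controls, under the floor, 4.99 and 4.50 in Dhh-Cre, and 4.33, 4.26, 4.64 and 4.38 in Sf1-Cre. All 6 mutant arrays were above the floor and above both controls. Gli1 entered the test only through mutant arrays, so its direction from control was set by the filter. Gli1 was at least 1.67-fold higher in Dhh-Cre (limma's adjusted p = 0.000156) and at least 1.32-fold higher in Sf1-Cre (adjusted p = 0.000221) when set against the floor. The lines did not differ beyond the threshold (−0.34 ± 0.20 SE, adjusted p = 0.263, 95% interval −0.81 to 0.12).

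Gli2 (chromosome 1, 118834061 to 119054405), the main activator downstream of Smo, was also under the floor in the controls. Probe set 1459211_at read log2 2.57 and 2.67 there, 5.23 and 4.33 in Dhh-Cre, and 4.12, 3.76, 4.20 and 4.38 in Sf1-Cre. The mutants did not overlap the controls, while the pair of Dhh-Cre arrays lay far apart and overlapped the Sf1-Cre arrays. As with Gli1, the direction from control was set by the filter. The rise was at least 1.72-fold in Dhh-Cre (adjusted p = 0.000318) and at least 1.08-fold in Sf1-Cre (adjusted p = 0.00114), where the mean of 4.11 is close to the floor. With all values under log2 4 set to 4, neither the Gli1 nor the Gli2 change in Sf1-Cre passed (0.40, adjusted p = 0.0666, and 0.18, adjusted p = 0.54). Gli2 did not pass between the lines (−0.67 ± 0.27 SE, adjusted p = 0.119), but did without Dhh-Cre replicate 2 (−1.12, adjusted p = 0.039). The other Gli2 probe set, 1446086_s_at, comes from the same sequence record and was not tested, with values of log2 3.04 to 4.18.

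Gli3 (chromosome 13, 15463723 to 15730026) acts mainly as a repressor when the pathway is off. Among the tested members with controls above the floor, it had the smallest changes from control. Probe set 1455154_at read log2 6.53 and 6.16 in the controls, 7.53 and 7.43 in Dhh-Cre, and 6.30, 7.0, 6.80 and 6.54 in Sf1-Cre. The Dhh-Cre arrays stood above all others, and the Sf1-Cre arrays overlapped the controls. Gli3 rose 2.20-fold in Dhh-Cre (log2 1.14 ± 0.25 SE, adjusted p = 0.0034), and in Sf1-Cre the difference from control did not pass (0.32 ± 0.22 SE, adjusted p = 0.216, 95% interval −0.19 to 0.82).

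Between the lines Gli3 was 1.77-fold lower in Sf1-Cre (−0.82 ± 0.22 SE, adjusted p = 0.033). That call was lost without Dhh-Cre replicate 1 (0.179), Dhh-Cre replicate 2 (0.108), Sf1-Cre replicate 3 (0.0558) or Sf1-Cre replicate 4 (0.0533), and without the 3 arrays with high Spink8 (0.316). Of all probe sets, 36.5% in Dhh-Cre and 51.1% in Sf1-Cre had a higher signed log2 difference from control than Gli3. Under housekeeping median centring its sign turned in both lines (−0.56, adjusted p = 0.0963, and −1.38, adjusted p = 0.000518). The other 2 Gli3 probe sets stayed under the floor.

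Hhip (chromosome 8, 79965850 to 80058060) encodes a membrane protein that binds hedgehog ligands and limits their reach. All 4 of its probe sets stayed under the floor on every array, so it was not tested and has no fold. The brightest, 1455277_at, read log2 2.47 and 2.20 in the controls, 3.39 and 3.26 in Dhh-Cre and 1.83 to 2.47 in Sf1-Cre. In all, the 11 untested probe sets of the members gave 1 value at or above log2 4, in Gli2.

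**Figure D2:**
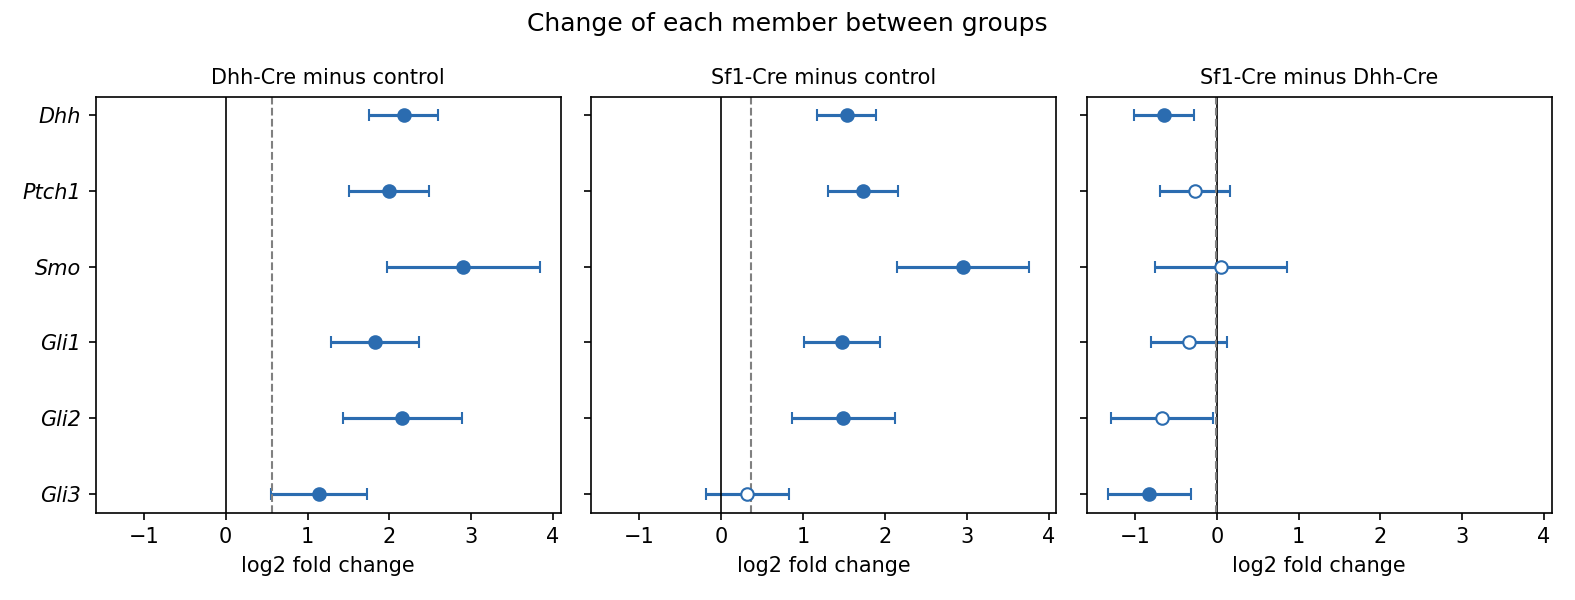
Log2 fold change of the 6 tested hedgehog pathway genes in the 3 comparisons, with 95% intervals from limma; filled points passed and open points did not, the solid line is 0 and the dashed line the median of all tested probe sets. The controls of Gli1 and Gli2 lie under the floor. Among the other genes, Smo has the largest change against control in both lines (2.90 and 2.96) and Gli3 the smallest (1.14 and 0.32). Between the lines, Dhh (−0.65) and Gli3 (−0.82) passed.

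The receptor and Gli transcripts were then set against the ligand within each array, as the log2 level of the target minus that of Dhh. A step that scales a whole array cancels in this difference, so it does not depend on the centring. Only its change between groups has a meaning, because each gene has its own probes. There were 15 such comparisons, with exact 2-sided permutation tests over arrays. The smallest p of an exact permutation test is 0.333 with 2 against 2 arrays and 0.0667 with 2 against 4, so none could pass.

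For the receptor, Ptch1 minus Dhh was 1.72 and 1.39 in the controls, 1.34 and 1.41 in Dhh-Cre, and 1.50, 1.86, 1.72 and 1.94 in Sf1-Cre. The controls overlapped both mutant groups, with changes of −0.18 in Dhh-Cre (exact permutation p = 0.667, adjusted 0.909) and 0.20 in Sf1-Cre (p = 0.333, adjusted 0.625). All 4 Sf1-Cre arrays were above both Dhh-Cre arrays, a change of 0.38 (exact permutation p = 0.133, adjusted 0.625).

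Smo and Gli3 lay apart from the controls in every mutant array, in opposite directions. Smo minus Dhh was higher than in the controls by 0.72 in Dhh-Cre (exact permutation p = 0.333, adjusted 0.625) and by 1.42 in Sf1-Cre (p = 0.133, adjusted 0.625). Gli3 minus Dhh was −1.81 and −1.91 in the controls, −2.83 and −2.95 in Dhh-Cre and −3.56, −2.70, −3.02 and −2.99 in Sf1-Cre. Every mutant array was below both controls, with changes of −1.04 (exact permutation p = 0.333, adjusted 0.625) and −1.21 (p = 0.0667, the smallest possible, adjusted 0.625). Of all tested probe sets, 15.5% in Dhh-Cre and 23.7% in Sf1-Cre had a higher signed difference than Dhh. Most therefore fell relative to Dhh, as Gli3 did. The share of all genes that lay apart from the controls in every mutant array was not counted.

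For Gli1 and Gli2 the groups overlapped in this measure. The changes of Gli1 minus Dhh were −0.36 in Dhh-Cre and −0.05 in Sf1-Cre, and those of Gli2 minus Dhh were −0.02 and −0.04. Both genes were under the floor in the controls, and with values under log2 4 set to 4 the changes became −1.43 and −1.13 for Gli1 and −1.40 and −1.36 for Gli2.

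**Figure D3:**
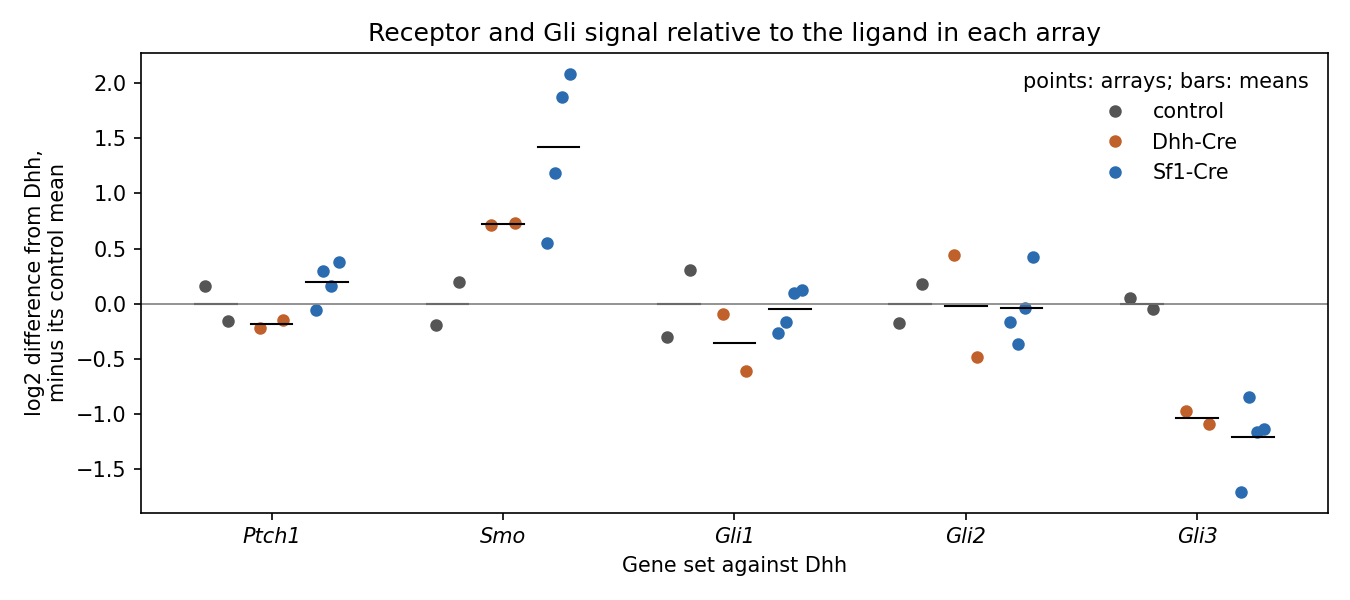
Log2 level of each receptor or Gli gene minus that of Dhh in each array, with the control mean set to 0; points are arrays and bars are group means. Smo lies above the controls in all 6 mutant arrays (group changes of 0.72 and 1.42), Gli3 below them (−1.04 and −1.21), and Ptch1, Gli1 and Gli2 overlap them. Most tested probe sets of the array fell relative to Dhh.

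Markers of the cells that receive the ligand also moved. Leydig cell markers summed to intensities of 5656 to 6434 in the controls, 18208 to 22914 in Dhh-Cre and 19266 to 28473 in Sf1-Cre. Of the 5 tested, 3 rose in Dhh-Cre and 4 in Sf1-Cre (medians 1.54 and 1.78), while Insl3, Lhcgr and Hsd3b6 were not analysed here. Peritubular markers summed to 5898 to 5948, 9210 to 10750 and 6171 to 7006. Of these 7, 6 were higher in Dhh-Cre and 5 in Sf1-Cre, and Actg2 was lower in both. Actg2 was the brightest of the 7 in the controls (mean log2 11.9) and fell 16.4-fold in Dhh-Cre and 28.1-fold in Sf1-Cre. Its fall thus hides part of the rises of the other peritubular markers in these sums. Interstitial fibroblast markers summed to 1543 to 1632, 11345 to 14063 and 11591 to 12699, with 6 of 6 higher in each line (medians 3.71 and 3.43). Endothelial markers summed to 440 to 441, 1527 to 1726 and 1114 to 1901, with 6 of 7 tested higher in each line and Pecam1 and Cdh5 under the floor. Control means were under the floor for 2 of the 7 tested peritubular and 4 of the 7 tested endothelial markers. These entered the test through mutant arrays, which favours a rise. Over all tested genes, 48.9% and 46.3% were higher in the lines. Most tested markers of each of these cell types were thus higher in the arrays in which Ptch1, Gli1 and Gli2 were higher. The part of these cells in those differences was not tested. Centring on the peritubular and endothelial markers turned Ptch1 to −0.42 (adjusted p = 0.13) and −0.81 (adjusted p = 0.00454) in the lines.

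Macrophage markers summed to intensities of 1554 to 1629, 12474 to 13241 and 19026 to 21527, with 7 of 7 higher in each line. Granulosa cell markers, of the ovary's counterpart of the Sertoli cell, summed to 892 to 919, 4650 to 5483 and 6454 to 8902, with 5 of 5 tested higher in each line. Of these 5, 4 had control means under the floor and entered the test through mutant arrays, so their direction was set by the filter. The other, Inha, was the brightest in every group (means of log2 9.76, 12.2 and 12.6), and the sums are mostly its signal. Epididymal markers summed to 53.0 to 164, 71.6 to 3248 and 94.0 to 4406, with 1 of 4 tested higher and 1 lower in each line.

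Other genes of the pathway were read from 4 lists. Of the ligands and the genes for their processing or release, Shh and Ihh stayed under the floor, so Dhh was the one hedgehog ligand with signal above it. Of the 3 tested members of that list, 1 rose and 0 fell in Dhh-Cre, 2 rose and 1 fell in Sf1-Cre, and 2 were lower in Sf1-Cre than in Dhh-Cre. Over all tested genes, 48.9% rose and 30.4% fell in Dhh-Cre, and 46.3% and 33.1% in Sf1-Cre. Between the lines 11.1% were lower in Sf1-Cre, and 3 genes are too few to set against these shares. Disp1, which releases lipid-bearing ligand from the cell, rose by 1.59 ± 0.24 SE in Dhh-Cre (limma's adjusted p = 0.000373) and by 0.52 ± 0.21 SE in Sf1-Cre (adjusted p = 0.0458). The latter call was lost in 5 of 8 leave-one-out fits, and the lower level of Disp1 in Sf1-Cre than in Dhh-Cre (−1.07, adjusted p = 0.00999) did not pass without Dhh-Cre replicate 1 (adjusted p = 0.0967) or without the 3 arrays with high Spink8 (adjusted p = 0.17). Both signs turned under housekeeping median centring. Scube2, a secreted protein that takes up released ligand, had means of log2 7.08, 6.32 and 4.72, and fell in Sf1-Cre (−2.36 ± 0.31 SE, adjusted p = 0.000176). Scube2 was also lower in Sf1-Cre than in Dhh-Cre (−1.60, adjusted p = 0.0103), by −0.97 without Dhh-Cre replicate 1 and −2.22 without Dhh-Cre replicate 2, and did not pass without the 3 arrays with high Spink8 (−0.88, adjusted p = 0.128). Its difference between Dhh-Cre and control passed only without Dhh-Cre replicate 1 among the leave-one-out fits (−1.39, adjusted p = 0.00133). Hhat, the acyltransferase that lipidates the ligand, was under the floor in the controls and at least 1.59-fold higher in Sf1-Cre (adjusted p = 0.00575), a sign that turned under housekeeping centring. Hhat entered the test only through mutant arrays, so its direction was set by the filter.

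Of 4 tested co-receptors, 2 rose and 1 fell in Dhh-Cre, 3 rose and 1 fell in Sf1-Cre, and 0 passed between the lines (medians 1.70, 2.08 and 0.37, or 1.51 and 1.97 against control with genes under the floor at their bounds). Over all tested genes, 48.9% rose and 30.4% fell in Dhh-Cre, and 46.3% and 33.1% in Sf1-Cre. Gas1, which helps Ptch1 bind ligand, rose 8.87-fold in Dhh-Cre (3.15 ± 0.27 SE, adjusted p = 1.93e-05) and 10.8-fold in Sf1-Cre (3.43 ± 0.23 SE, adjusted p = 4.72e-06). Cdon, a co-receptor of the immunoglobulin family, was at least 6.76-fold and at least 9.23-fold higher. Its controls were under the floor, so its direction was set by the filter. Boc, its relative, was higher in Sf1-Cre (0.73, adjusted p = 0.00449) and did not pass in Dhh-Cre (0.25, adjusted p = 0.267), with signs that turned under housekeeping centring, and passed in neither line with the mean of its probe sets (−0.057, adjusted p = 0.714, and 0.22, adjusted p = 0.126). Lrp2, an endocytic receptor and the 1 that fell, was at least 1.45-fold lower in each line. It reached the floor only in the controls, so its direction was also set by the filter.

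Of the 14 tested genes of signal transduction, 7 rose and 5 fell in Dhh-Cre, and 5 rose and 6 fell in Sf1-Cre. Between the lines, 1 was lower in Sf1-Cre. The medians were 0.18, 0.09 and −0.04. Over all tested genes, 48.9% rose and 30.4% fell in Dhh-Cre, and 46.3% and 33.1% in Sf1-Cre, so the counts against control are near the background. Evc and Evc2, partner proteins of Smo at the base of the cilium, had the largest rises. Evc was at least 5.38-fold higher in Dhh-Cre and at least 7.87-fold in Sf1-Cre, and Evc2 at least 7.58-fold and at least 8.17-fold. Both were under the floor in the controls, so their direction was set by the filter. Gsk3b, a kinase that promotes processing of Gli proteins, rose by log2 1.36 and 1.65. Its signs turned under housekeeping median centring but not under mean centring of the same genes. Cul3, a ubiquitin ligase subunit that acts on Gli proteins with Spop, fell by 1.17 and 1.25. With the mean of a gene's probe sets, Gsk3b passed in neither line (0.30, adjusted p = 0.139, and 0.23, adjusted p = 0.19), and Cul3 did not pass in Dhh-Cre (−0.39, adjusted p = 0.0607). Sufu, which holds Gli proteins in the cytoplasm, did not pass (−0.13, adjusted p = 0.63, and −0.23, adjusted p = 0.346).

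Of 9 genes that respond to hedgehog signalling in other tissues, 6 were tested, and 6 of 6 passed as higher in each line, where 48.9% and 46.3% of all tested genes did. Bcl2, Sfrp1 and Osr1 were under the floor in the controls and entered the test only through mutant arrays, so their direction was set by the filter. The medians were 2.24 and 1.56, or 1.98 and 1.55 with such genes at their bound. In Sf1-Cre 2 of the 6, Ccnd1 and Sfrp1, were lower than in Dhh-Cre (−0.76, adjusted p = 0.0397, and −1.43, adjusted p = 0.016), and the Ccnd1 call was lost in 5 of 8 leave-one-out fits. Ccnd1, which encodes cyclin D1, rose 7.66-fold in Dhh-Cre (adjusted p = 1.86e-05) and 4.52-fold in Sf1-Cre (adjusted p = 3.52e-05). Bcl2, an inhibitor of apoptosis, was at least 4.54-fold and at least 4.45-fold higher. Hsd11b2, a glucocorticoid-inactivating enzyme, rose by log2 1.52 and 1.83, a call that was lost in Dhh-Cre without control replicate 2 (1.01, adjusted p = 0.0851) or Dhh-Cre replicate 1 (1.15, adjusted p = 0.0733). Osr1, a transcription factor gene, was under the floor in the controls and on average in Sf1-Cre, and at least 1.37-fold higher in Dhh-Cre. With values under log2 4 set to 4, Osr1 passed in neither line (0.45, adjusted p = 0.06, and 0.11, adjusted p = 0.551). Foxf1, Foxf2 and Snai1 stayed under the floor. Under housekeeping median centring, Hsd11b2 and Osr1 turned sign in Dhh-Cre and Osr1 in Sf1-Cre, where Ccnd1 (0.48, adjusted p = 0.0695) and Hsd11b2 (0.14, adjusted p = 0.702) no longer passed.

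**Figure D4:**
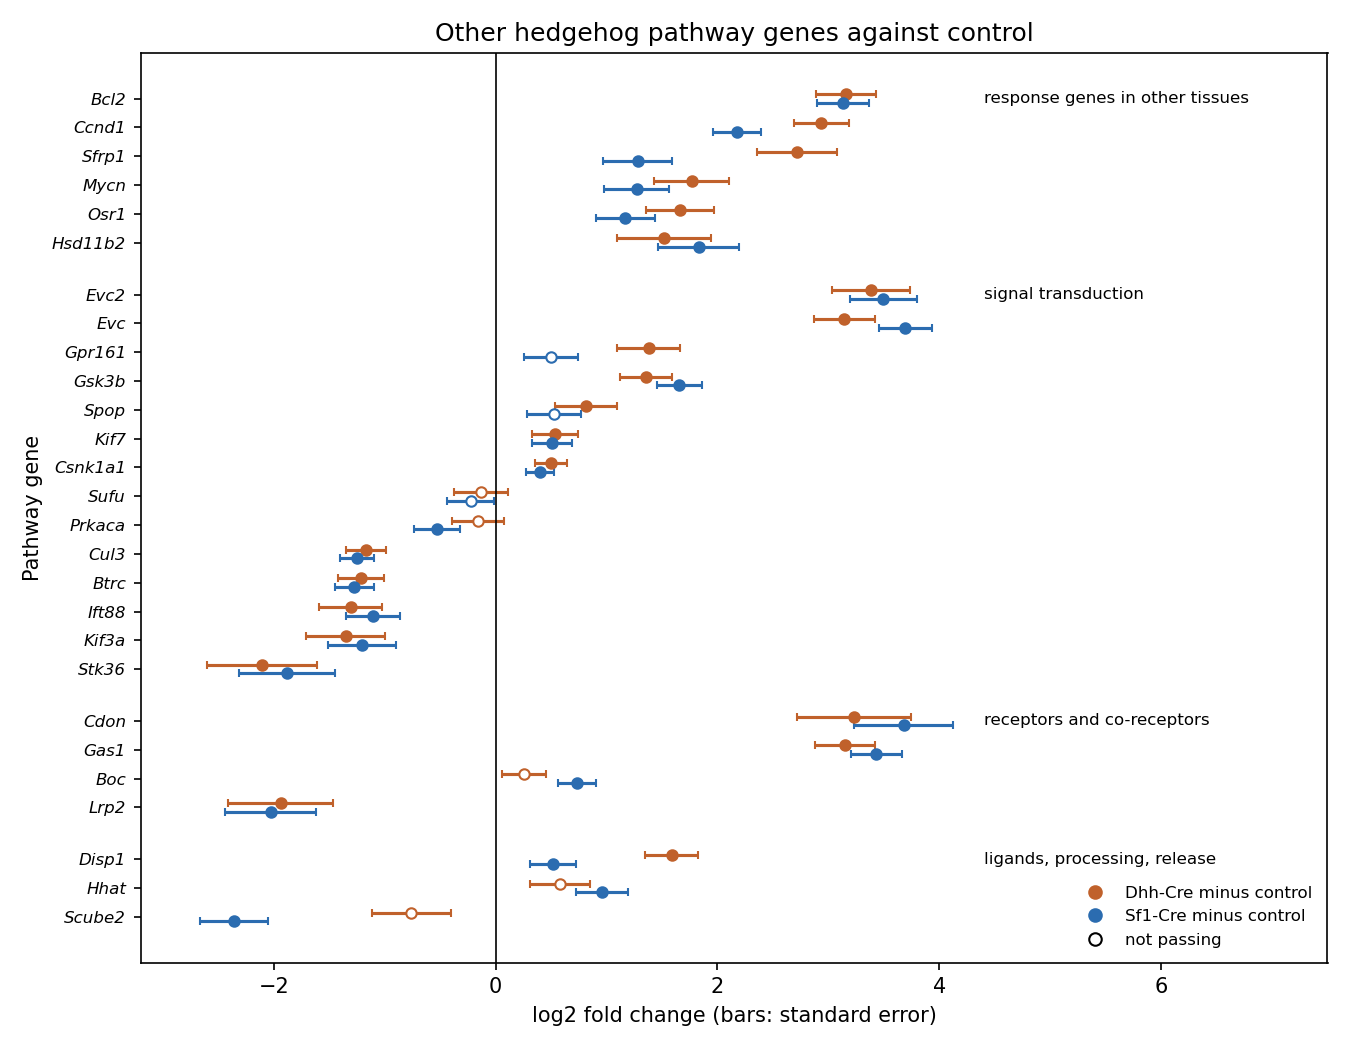
Log2 fold change against control of the other tested hedgehog pathway genes, in 4 groups by role; bars are limma's standard errors, filled points passed and open points did not. The 6 response genes lie right of 0 in both lines, while signal transduction genes lie on both sides, from Evc and Evc2 at the right to Stk36 at the left.

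The genes whose 8-array profiles lay nearest to those of Dhh and Ptch1 were found by the root mean square difference of log2 values, each profile first set to 0 at its control mean, over 12774 candidate genes. The 5 nearest to Dhh were Sh3d19 (0.100), Ltbp1 (0.111), Mrm1 (0.123), Gspt2 (0.133) and Arhgap12 (0.136). The 5 nearest to Ptch1 were Alg14 (0.0747), Nsf (0.0942), Nckap1 (0.0967), Capza2 (0.0997) and Coro1b (0.111). Among the members, Ptch1 ranked 63rd in likeness to Dhh (0.220), while Gli3 and Smo ranked 4617th and 5297th. Gli1 and Gli2 are not ranked, as their controls lie under the floor. All 8 arrays enter each profile and share the same 3 groups, so these ranks describe the profiles only.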

How the data were processed

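Total RNA from testes was extracted with TRIzol and labelled with biotin by in vitro transcription on Affymetrix arrays, 1 array per sample, per the labels' protocols. The deposited intensity values were made by the authors with GCRMA, per the submitters' processing notes; the sources used here give no version. In general use GCRMA removes sequence-dependent background, equalises array distributions and summarises probes, so a testis-wide shift in RNA content is not preserved. The deposited intensities are linear, and log2 was taken here.

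Of the probe sets, 34958 have 1 symbol, 932 several and 9211 none; 34754 matched GRCm38.p6 by Entrez identifier. After 64 array control probe sets were left out, the 25761 probe sets at log2 4 or above in at least 2 arrays of any group were fitted with limma 3.58.1 (R 4.3.3, data.table, version 1.17.8) as 3 group means over 8 arrays (5 residual and 3.01 prior degrees of freedom). The p-values are 2-sided, with Benjamini-Hochberg adjustment over all 25761, and 20081, 19983 and 5508 passed in Dhh-Cre against control, Sf1-Cre against control and Sf1-Cre against Dhh-Cre. The fit was tested on simulated data. A fold against a group under log2 4 is a lower bound against that floor. Where a gene has several probe sets, the one with the highest mean over all arrays stands for it.

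Named genes were all members, up to 4 per pathway list, those of lowest p for Sf1-Cre minus control, and the 5 nearest profiles to Dhh and Ptch1; Sufu, Shh, Ihh, Foxf1, Foxf2, Snai1, the single markers, Stk36 and Sfrp1 were named after their values were seen. The members and lists were chosen with earlier results of these data known. The alternatives are described in the closing section. Plots used matplotlib 3.10.9 and pandas 2.3.3 under Python 3.11.15.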

Additional observations from a re-analysis of the deposited data

Results flagged for a closer look

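The effects of the Cre lines differed for 2 of the 6 tested members, by the test of the difference itself. The Dhh effect of Sf1-Cre minus that of Dhh-Cre was −0.65 on the log2 scale, and that of Gli3 was −0.82 (limma, adjusted p = 0.0244 and 0.033). In each case the 4 Sf1-Cre arrays were below both Dhh-Cre arrays. Over all tested genes, 12.4% were higher and 11.1% lower in this comparison. Both calls were lost on leaving out single arrays (Dhh in 3 of 8 fits, Gli3 in 4 of 8), without the 3 arrays with high Spink8 and with the replicate block. The common controls cancel in this difference. Among the 4 Sf1-Cre arrays, 0 of the 12 member values checked with Dixon's test had an array standing apart.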

How the results depend on the processing

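Few arrays, and controls under the floor (Gli1, Gli2) or just above it (Smo), limit these results. Values are log2 differences: "in Dhh-Cre" and "in Sf1-Cre" mean against control, and "between the lines" means Sf1-Cre minus Dhh-Cre. The calls against control for Dhh, Ptch1, Smo, Gli1 and Gli2 in both lines, and for Gli3 in Dhh-Cre, held whichever array was left out, and under quantile normalization, array weights, trended robust moderation, no filter and a fit of only the 2 groups compared. A filter at log2 6 left Gli1 and Gli2 untested and kept the other calls.
Under housekeeping median centring Dhh-Cre gave Dhh 0.48, Ptch1 0.30, Gli1 0.13, Gli2 0.46, Gli3 −0.56, Gsk3b −0.34, Boc −1.44, Hsd11b2 −0.18, Osr1 −0.031, Hhat −1.12 and Disp1 −0.11. Sf1-Cre gave Dhh −0.17, Ptch1 0.031, Gli1 −0.22, Gli2 −0.20, Gli3 −1.38, Gsk3b −0.042, Boc −0.96, Osr1 −0.53, Hhat −0.74 and Disp1 −1.18, and the difference between the lines was −0.65 for Dhh (adjusted p = 0.0666).
Under peritubular and endothelial centring Dhh-Cre gave Dhh −0.24, Ptch1 −0.42, Smo 0.49 (adjusted p = 0.178), Gli1 −0.59, Gli2 −0.25, Gli3 −1.27, Gsk3b −1.05, Boc −2.16, Hsd11b2 −0.90, Osr1 −0.75, Hhat −1.83 and Disp1 −0.83. Sf1-Cre gave Dhh −1.01, Ptch1 −0.81, Smo 0.42 (adjusted p = 0.174), Gli1 −1.06, Gli2 −1.04, Gli3 −2.22, Gsk3b −0.88, Boc −1.80, Ccnd1 −0.36, Hsd11b2 −0.70, Osr1 −1.37, Hhat −1.58 and Disp1 −2.02, and between the lines the 2 Smo probe sets gave −0.069 and −0.0031. Centring on the housekeeping mean, chosen after seeing the data, gave Gli3 0.34, Boc −0.54 and Hhat −0.22 in Dhh-Cre, Gli1 0.51, Gli2 0.52, Gli3 −0.66, Boc −0.24, Hhat −0.011 and Disp1 −0.45 in Sf1-Cre, and −0.12 and −0.052 for the Smo probe sets between the lines. The housekeeping mean kept Dhh, Ptch1 and Smo as passing against control in both lines. All of these centrings subtract a level that itself differs between groups.
With values under log2 4 set to 4, Gli1 gave 0.40 and Gli2 0.18 in Sf1-Cre, and relative to Dhh, Gli1 gave −1.43 and −1.13 and Gli2 −1.40 and −1.36 in Dhh-Cre and Sf1-Cre. Quantile normalization gave −1.13 for Gli3 relative to Dhh in Dhh-Cre. With 1 probe set per gene, 10986, 11019 and 3402 genes passed, and with the mean of a gene's probe sets 10399, 10366 and 3357, fewer being tested; the mean gave Boc −0.057 in Dhh-Cre and Dhh −0.39 between the lines. At adjusted p under 0.01, 2089 probe sets passed between the lines, without Dhh (−0.65) and Gli3 (−0.82).
Replicate numbers did not pair the samples (correlations of deviations −0.18 to 0.26). The replicate block gave 19569, 17515 and 4541 passing probe sets, and between the lines Dhh −0.59 (adjusted p = 0.0975), Smo −0.45 and Gli3 −0.83 (adjusted p = 0.121). Without the 3 arrays with high Spink8, chosen after seeing the data, the comparison between the lines gave 939 passing probe sets, Dhh −0.77 and Gli3 −0.66. Leaving out each array gave, between the lines, 1577 to 5995 passing probe sets, Dhh −0.69 to −0.58, Smo −0.13 to 0.30, Gli2 −1.12 to −0.21 and Gli3 −0.94 to −0.70. Relative to Dhh it gave Gli1 −0.36 to 0.26 in Sf1-Cre and 0.046 to 0.56 between the lines, and Gli2 −0.48 to 0.44 between the lines. Where no cause is named, the cause was not tested.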
